A study of Mus musculus with 48 samples.

Results

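The genes described here are the chemokines and chemokine receptors of mouse liver, taken by name from the deposited table of RNA sequencing values. A gene was included when it was protein coding, its symbol began with Ccl, Cxcl, Cx3cl, Xcl, Ccr, Cxcr, Cx3cr or Xcr followed by a digit, and its value was above 0 in at least 2 of 8 RNA libraries. This gave 47 genes out of 37583 in the table, or out of 17713 protein-coding genes above 0 in at least 2 libraries. They comprise 30 ligands (18 of the CC class, 11 CXC and 1 CX3C) and 17 receptors. Another 11 protein-coding genes with such names were above 0 in fewer than 2 libraries, and 3 entries with such names were of other biotypes. The rule itself uses names and detection only, although it was set with earlier results of these data known.

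The series holds 48 liver samples of F1 mice (C57Bl6/CBA), which the labels describe as male. RNA was sequenced from 3 wild-type livers (WT), 3 livers of C/EBPa lox/lox / Alfp-Cre mice (the C/EBPα knockout) and 2 livers of HNF4a lox/lox / Alfp-Cre mice (the HNF4α knockout). Alfp-Cre carries control elements of the albumin and alpha-fetoprotein genes and acts in cells of the hepatocyte lineage, so blood, endothelial and stromal cells keep the floxed gene. The label of the WT samples names no floxed allele and no Cre. The labels give the age of all RNA samples as 60 days after birth, whereas the series text gives embryonic day 18.5 (E18.5). Afp, a fetal liver gene, stood at 625821, 499143 and 706964 normalized reads in the 3 WT libraries. For both transcription factors, lists of ChIP-seq peaks (chromatin immunoprecipitation followed by sequencing) were available from wild-type liver at E15.5, E18.5 and postnatal days 0.5, 14 and 60 (P0.5, P14, P60), with 2 replicates each. RNA polymerase II and input samples were not used here.

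Chemokines are small secreted proteins that guide the movement of leukocytes through receptors coupled to G proteins. CXC ligands that act on Cxcr2 recruit neutrophils, CC ligands that act on Ccr2 recruit monocytes, and the ligands of Cxcr3 recruit activated T cells and natural killer cells. In the liver, ligands can be made by hepatocytes as well as by resident macrophages, endothelial and stellate cells, whereas most of the receptors are carried by blood cells. The fetal liver is also a site of blood formation, in which Cxcl12 and its receptor Cxcr4 are known to retain progenitor cells. Hepatocytes depend on the transcription factors C/EBPα and HNF4α, and transcription of many chemokine genes is induced by NF-kB or by interferon.

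Promoter sequences are shown for 5 ligands on which the results below turn: Cxcl10, which was higher in both knockouts, its neighbour Cxcl9, which was not called, Ccl9, which was lower in the HNF4α knockout, its neighbour Ccl6, and Cxcl1, bound by both factors at its start site at every stage. Each line gives the 250 bases before the transcription start site, 5′ to 3′ on the gene's strand, from RefSeq on the build GRCm38.p6. Capitals mark matches, on either strand, to the HNF4 motif (CAAAGNNCA), to the NF-kB motif and to the interferon-stimulated response element (ISRE, GAAANNGAAA); none of the 5 windows held the C/EBP motif (TTGCNNAA).
Cxcl10 (chr5:92348890-92349139, minus strand): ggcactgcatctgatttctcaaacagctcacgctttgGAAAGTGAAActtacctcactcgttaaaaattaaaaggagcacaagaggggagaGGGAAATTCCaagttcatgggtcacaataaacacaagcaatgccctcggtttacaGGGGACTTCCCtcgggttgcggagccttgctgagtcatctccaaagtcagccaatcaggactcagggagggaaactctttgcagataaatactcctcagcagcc
Cxcl9 (chr5:92328080-92328329, minus strand): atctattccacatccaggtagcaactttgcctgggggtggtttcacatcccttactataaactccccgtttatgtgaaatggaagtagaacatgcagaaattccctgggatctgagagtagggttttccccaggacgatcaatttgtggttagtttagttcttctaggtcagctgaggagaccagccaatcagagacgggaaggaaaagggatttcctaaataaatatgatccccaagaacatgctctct
Ccl9 (chr11:83578637-83578886, minus strand): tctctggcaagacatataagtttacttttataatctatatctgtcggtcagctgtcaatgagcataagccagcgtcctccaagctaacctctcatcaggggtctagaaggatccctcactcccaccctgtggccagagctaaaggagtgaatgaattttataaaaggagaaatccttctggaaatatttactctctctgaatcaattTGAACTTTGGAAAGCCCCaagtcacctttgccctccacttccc
Ccl6 (chr11:83593088-83593337, minus strand): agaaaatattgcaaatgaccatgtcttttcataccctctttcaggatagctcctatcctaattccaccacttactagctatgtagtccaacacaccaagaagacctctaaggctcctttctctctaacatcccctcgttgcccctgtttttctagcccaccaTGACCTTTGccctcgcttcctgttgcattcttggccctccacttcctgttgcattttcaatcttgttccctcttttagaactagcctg
Cxcl1 (chr5:90890995-90891244, plus strand): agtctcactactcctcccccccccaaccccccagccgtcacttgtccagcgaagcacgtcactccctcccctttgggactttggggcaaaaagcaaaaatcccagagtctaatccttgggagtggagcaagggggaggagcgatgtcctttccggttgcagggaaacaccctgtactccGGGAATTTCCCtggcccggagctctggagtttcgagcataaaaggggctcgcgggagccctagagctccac

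In the Cxcl10 window, an ISRE match begins 213 bases before the start site and NF-kB matches begin 159, 104 and 103 bases before it, the last of them overlapping. The Cxcl1 window has NF-kB matches that begin 71 and 70 bases before its start site and cover each other on opposite strands. The Ccl9 window has an HNF4 match that begins 43 bases before the start site and an NF-kB match that begins 35 bases before it, sharing 1 base. The Ccl6 window has an HNF4 match that begins 88 bases before the start site, and the Cxcl9 window has none of these letters. RefSeq windows were found for 34 of the 47 genes (41 windows, since some genes have several start sites), and 13 genes had none. The NF-kB motif was found near 9 of the 34 genes (22.0% of their windows against 7.25% of all 32851 windows): Ccl20, Ccl9, Ccr1, Ccr3, Ccr6, Cxcl1, Cxcl10, Cxcl2 and Cxcl3. The HNF4 motif was found near 5 genes (12.2% of windows against 5.49%), Ccl27a, Ccl27b, Ccl6, Ccl9 and Ccr6. The C/EBP motif was found near 5 genes (17.1% against 9.56%), Ccl21a, Ccl27a, Ccl27b, Cxcl13 and Cxcr7. The ISRE, which was added after the values had been seen, was found near 3 genes (7.32% against 2.98%), Ccl19, Cxcl10 and Cxcl14. A match of letters is a description and does not show that a factor binds there. Ccl27a and Ccl27b, like Ccl21a and Ccl21c, are near-identical copies, so neither their windows nor their reads are independent of each other.

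The deposited RNA values are whole numbers, made from the reads of each gene after scaling each library by its size factor, and are called normalized reads here. They are not divided by gene length, so levels are compared between libraries and not between genes. Library totals were 20.4 to 22.5 M for WT, 13.4 to 16.4 M for C/EBPα knockout and 20.0 to 26.0 M for HNF4α knockout libraries. In its own knockout, Cebpa had 322, 419 and 998 normalized reads, 6.93% of the WT mean. Hnf4a had 1238 and 2444 in its own knockout, 26.6% of the WT mean. In addition, Cebpa in the HNF4α knockout was at 50.1% of WT. Hnf4a in the C/EBPα knockout was at 2492, 2530 and 4510, 45.9% of the WT mean, with WT at 9098, 4948 and 6718. HNF4α knockout replicate 1 stood apart: 10 skeletal muscle markers summed to 657719 there and to between 79 and 1345 in the other 7 libraries. Hepatocyte markers (9 of 9 above 0 in all libraries) summed to between 3140460 and 4767180 in WT, 341361 and 1273820 in the C/EBPα knockout, and 1428870 and 1946310 in the HNF4α knockout. Alb was the largest part of the WT sums. In the HNF4α knockout Ahsg of this list was above WT (563732 and 555541, with WT at 464801, 378361 and 460374). Ttr overlapped WT there, and the other markers were below it.

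Of the 47 genes, 33 passed the filter on low values (at least 10 normalized reads in at least 2 libraries), 21 ligands and 12 receptors. The other 14 were not tested, and their values ran from 0 to 23: the ligands Ccl11, Ccl19, Ccl21c, Ccl5, Cxcl13, Cxcl14, Cxcl15, Cxcl2 and Cxcl3 and the receptors Ccr10, Ccr1l1, Ccr4, Ccr6 and Cxcr3. At such values a difference was not detectable. Cxcr3, the receptor of Cxcl9 and Cxcl10, was at 0, 2 and 3 in WT, at 5, 5 and 9 in the C/EBPα knockout and at 6 and 12 in the HNF4α knockout. Differences were tested with limma on log2(normalized reads + 1) over 17771 genes, with all 8 libraries in 1 fit and Benjamini-Hochberg adjustment over all genes. A gene is called higher or lower, or said to have risen or fallen, where the adjusted p was under 0.05, and log2 changes are given ± standard error (SE).

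In the C/EBPα knockout 1 of 33 tested genes was called, Cxcl10, which rose; of all 17771 genes, 3.75% were called in this comparison. In the HNF4α knockout 2 of 33 were called, Cxcl10, which rose, and Ccl9, which fell, against 4.7% of all genes. Between the knockouts 0 of 33 were called with limma, against 3.48% of all genes, although 12 of 33 had an unadjusted p under 0.05 (18.6% of all genes did). The numbers with an unadjusted p under 0.05 were 8 of 33 in the C/EBPα knockout (14.4% of all genes) and 12 of 33 in the HNF4α knockout (20.6% of all genes). The median log2 change of the 33 genes was -0.24 in the C/EBPα knockout (0.03 over all genes) and 0.11 in the HNF4α knockout (0.02 over all genes). Both comparisons share the WT libraries.

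**Figure D1:**
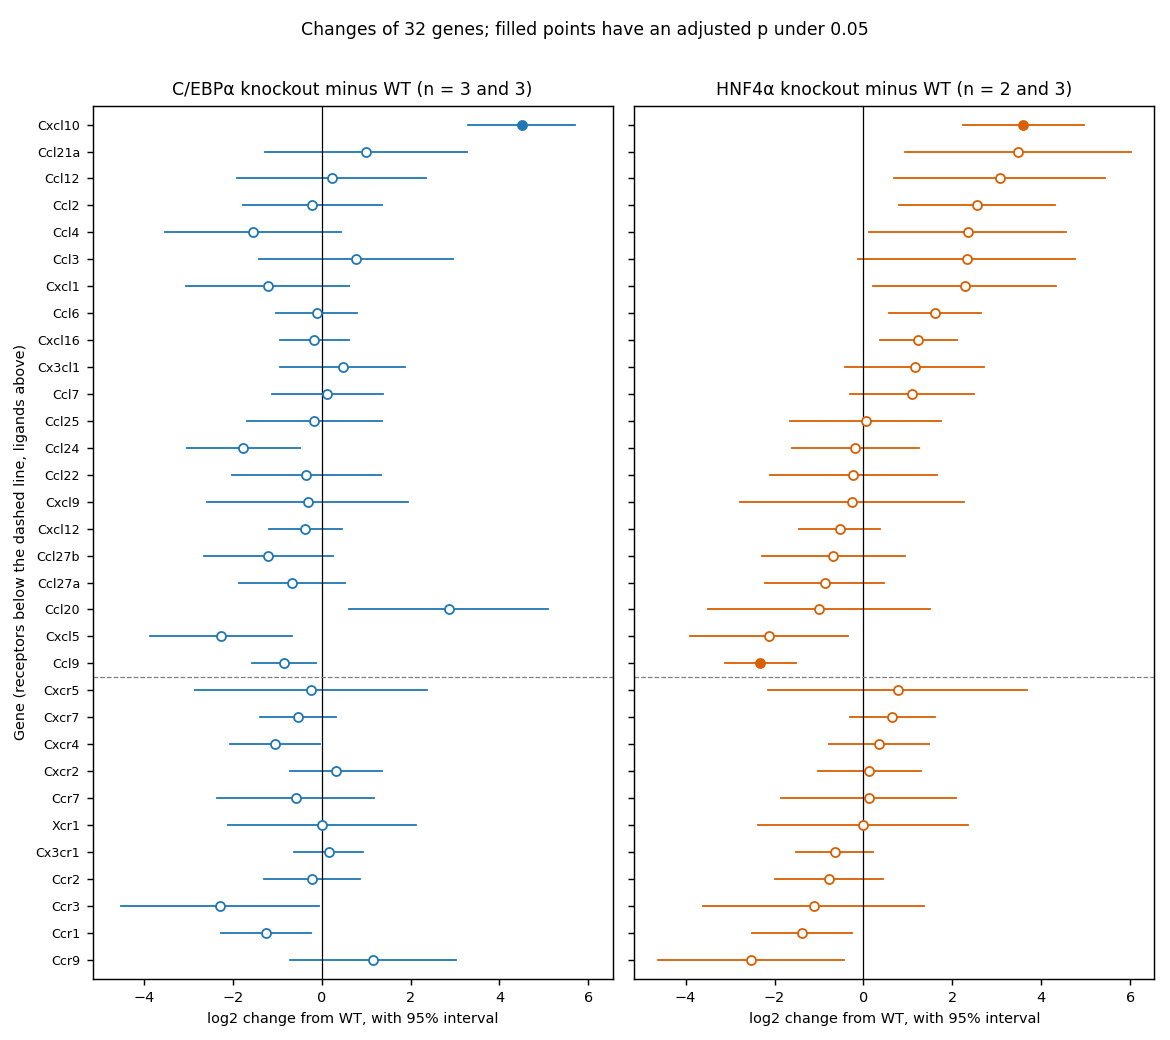
Log2 change from WT (horizontal axis) of 32 of the 33 tested genes, ordered by class and by the change in the HNF4α knockout, for the C/EBPα knockout (left, 3 against 3 libraries) and the HNF4α knockout (right, 2 against 3). Lines are 95% intervals and filled points have an adjusted p under 0.05: Cxcl10 on both sides and Ccl9 in the HNF4α knockout.

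Cxcl10 encodes an interferon-inducible ligand of Cxcr3. Its values were 36, 32 and 107 normalized reads in WT, 1092, 2233 and 624 in the C/EBPα knockout and 535 and 708 in the HNF4α knockout. Every knockout library was above every WT library, and the ranges of both knockouts overlapped. The means were 58.3 ± 42.2 (SD, n = 3) in WT, 1316 ± 828 (SD, n = 3) in the C/EBPα knockout and 621.5 ± 122 (SD, n = 2) in the HNF4α knockout. The log2 change was 4.50 ± 0.55 in the C/EBPα knockout (22.6-fold on the log2(value + 1) scale, limma adjusted p = 0.000883) and 3.60 ± 0.61 in the HNF4α knockout (12.1-fold, limma adjusted p = 0.00691). The C/EBPα knockout exceeded the HNF4α knockout by a log2 value of 0.90 ± 0.61, with a 95% interval from -0.45 to 2.25 (limma adjusted p = 0.460). The C/EBPα knockout result was called in 19 of 19 other settings. The HNF4α knockout result was called in 17 of 19; it was 3.80 without HNF4α knockout replicate 1 (limma adjusted p = 0.0576) and 3.40 without replicate 2 (limma adjusted p = 0.0579).

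Cxcl9, which lies beside Cxcl10 and encodes a ligand of the same receptor, was at 3, 5 and 13 in WT, 3, 3 and 10 in the C/EBPα knockout and 1 and 16 in the HNF4α knockout. All 3 groups overlapped, with log2 changes of -0.31 ± 1.03 in the C/EBPα knockout (limma adjusted p = 0.942) and -0.25 ± 1.15 in the HNF4α knockout (limma adjusted p = 0.920). The wide errors at these low values do not show that Cxcl9 was unaltered. Ifng, the interferon that induces both genes, was at 0 in all 8 libraries.

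The CXC ligands of Cxcr2 differed among themselves. Cxcl5, a neutrophil attractant, was at 32, 38 and 32 in WT, 7, 3 and 11 in the C/EBPα knockout and 4 and 12 in the HNF4α knockout. No knockout library reached the WT range, but neither log2 change was called, with -2.26 ± 0.72 (limma adjusted p = 0.140) and -2.11 ± 0.81 (limma adjusted p = 0.170). Cxcl1, a related neutrophil attractant, was at 9, 18 and 17 in WT, 3, 2 and 22 in the C/EBPα knockout and 86 and 60 in the HNF4α knockout. For Cxcl1 only the HNF4α knockout lay outside the WT range, above it, with a log2 change of 2.27 ± 0.93 (limma adjusted p = 0.198). The difference between the knockouts for Cxcl1 was -3.48 ± 0.93 (limma adjusted p = 0.0714). Cxcl2, at 0, 2 and 0 in WT, 0, 0 and 6 in the C/EBPα knockout and 6 and 23 in the HNF4α knockout, did not pass the filter.

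Cxcl12, the ligand of Cxcr4 and Cxcr7, was at 4493, 2714 and 4024 in WT, 3569, 1733 and 3672 in the C/EBPα knockout and 2607 and 2437 in the HNF4α knockout. Both HNF4α knockout values were just under the lowest WT value, and the log2 changes were -0.37 ± 0.37 (limma adjusted p = 0.752) and -0.54 ± 0.42 (limma adjusted p = 0.490). Cxcl16, a membrane-bound ligand of Cxcr6 that is shed by proteolysis, was at 243, 187 and 294 in WT, 161, 227 and 261 in the C/EBPα knockout and 662 and 474 in the HNF4α knockout. Its values in the HNF4α knockout were above those of all other libraries, with a log2 change of 1.24 ± 0.40 that was not called (limma adjusted p = 0.107).

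Ccl9, a CC ligand of Ccr1, was at 3236, 3867 and 3434 in WT, 1531, 1842 and 2653 in the C/EBPα knockout and 878 and 561 in the HNF4α knockout. The 3 groups did not overlap, with WT at the top and the HNF4α knockout at the bottom. In the HNF4α knockout Ccl9 fell by 2.32 ± 0.36 on the log2 scale (4.98-fold, limma adjusted p = 0.00425). In the C/EBPα knockout its log2 change of -0.84 ± 0.33 was not called (limma adjusted p = 0.243), nor was the difference between the knockouts, 1.48 ± 0.36 (limma adjusted p = 0.0521). The call in the HNF4α knockout was made in 18 of 19 other settings and was lost without HNF4α knockout replicate 2 (-1.99, limma adjusted p = 0.0586); without replicate 1, the library with muscle RNA, it was -2.64 (limma adjusted p = 0.0295).

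Ccl6, the neighbour of Ccl9 and another Ccr1 ligand, stood highest in the HNF4α knockout. Its values were 180, 192 and 116 in WT, 109, 116 and 250 in the C/EBPα knockout and 501 and 472 in the HNF4α knockout. Its log2 change of 1.61 ± 0.47 in the HNF4α knockout was not called (limma adjusted p = 0.0778). Ccl2, a ligand of Ccr2 that draws monocytes, was at 38, 34 and 28 in WT, 28, 87 and 9 in the C/EBPα knockout and 176 and 225 in the HNF4α knockout. Its log2 change of 2.55 ± 0.79 was not called either (limma adjusted p = 0.0971). Both were called when the HNF4α knockout and WT were fitted without the C/EBPα knockout (4 of 31 genes called in that fit: Ccl2, Ccl6, Ccl9 and Cxcl10). That fit called more genes throughout, 1475 of all 16999 tested, against 836 of 17771 in the main fit.

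The other CC ligands that stood above WT in the HNF4α knockout had lower values. Ccl12 and Ccl7, which also act on Ccr2, were at 27 and 23 and at 49 and 70, with WT at 4, 5 and 0 and at 33, 35 and 17. Ccl3 and Ccl4, which attract monocytes and T cells, were at 21 and 20 and at 30 and 58, with WT at 7, 0 and 9 and at 4, 14 and 7. Ccl21a, a ligand of Ccr7, was at 59 and 16, with WT at 0, 3 and 5. Cx3cl1, the membrane-anchored ligand of Cx3cr1, was at 89 and 71, with WT at 51, 22 and 39. None of these 6 was called; their limma adjusted p ran from 0.120 for Ccl21a to 0.383 for Cx3cl1.

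In the HNF4α knockout, 11 of 33 genes were thus at least 2-fold higher than WT without overlap, namely Ccl12, Ccl2, Ccl21a, Ccl3, Ccl4, Ccl6, Ccl7, Cx3cl1, Cxcl1, Cxcl10 and Cxcl16, and all of them are ligands. In the same comparison 12.3% of all genes met this rule in this direction, which is a looser rule than the test. Of the 11, Ccl12, Ccl21a, Ccl3 and Ccl4 passed the filter only with HNF4α knockout libraries. Their place in this count, and in the ligand median that follows, thus depends on libraries of the compared group. The median log2 change was 1.09 over the 21 tested ligands and 0.06 over the 12 tested receptors. At least 2-fold lower without overlap were 4 genes, Ccl9, Cxcl5, Ccr1 and Ccr9, against 11.9% of all genes. With HNF4α knockout replicate 2 alone, the counts were 8 higher and 6 lower of 31 genes, against 12.3% and 12.0% of all genes, and with replicate 1 alone 9 higher and 7 lower, against 18.2% and 18.3%. In the C/EBPα knockout, 2 genes were at least 2-fold higher without overlap (Cxcl10 and Ccl20, against 4.37% of all genes) and 4 were lower (Ccl24, Ccl27b, Cxcl5 and Ccr1, against 6.84%). Ccl20 passed the filter only through C/EBPα knockout libraries. Without C/EBPα knockout replicate 1 the lower count was 7 of 32 (8.84% of all genes), and without replicate 2 the higher count was 1 of 32 (6.42% of all genes). With equal library totals that split became 4 higher and 2 lower of 34 genes, against 14.3% and 3.59% of all genes, and the median of all genes moved to 0.53.

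Ccl20, a ligand of Ccr6, was at 1, 3 and 0 in WT, 22, 21 and 5 in the C/EBPα knockout and 0 and 0 in the HNF4α knockout. It was the only other tested gene besides Cxcl10 whose C/EBPα knockout values all lay above WT, and its log2 change of 2.86 ± 1.02 was not called (limma adjusted p = 0.194). Ccl24, a ligand of Ccr3, was at 44, 33 and 27 in the C/EBPα knockout, below all WT values of 99, 241 and 68 (-1.76 ± 0.58, limma adjusted p = 0.155), and at 65 and 165 in the HNF4α knockout. Ccl27b, a ligand of Ccr10, was at 16, 17 and 9 in the C/EBPα knockout, against 33, 53 and 19 in WT (-1.19 ± 0.66, limma adjusted p = 0.469). The other tested CC ligands, Ccl22, Ccl25 and Ccl27a, had values of 5 to 56, and their log2 changes against WT ran from -0.87 to 0.05.

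**Figure D2:**
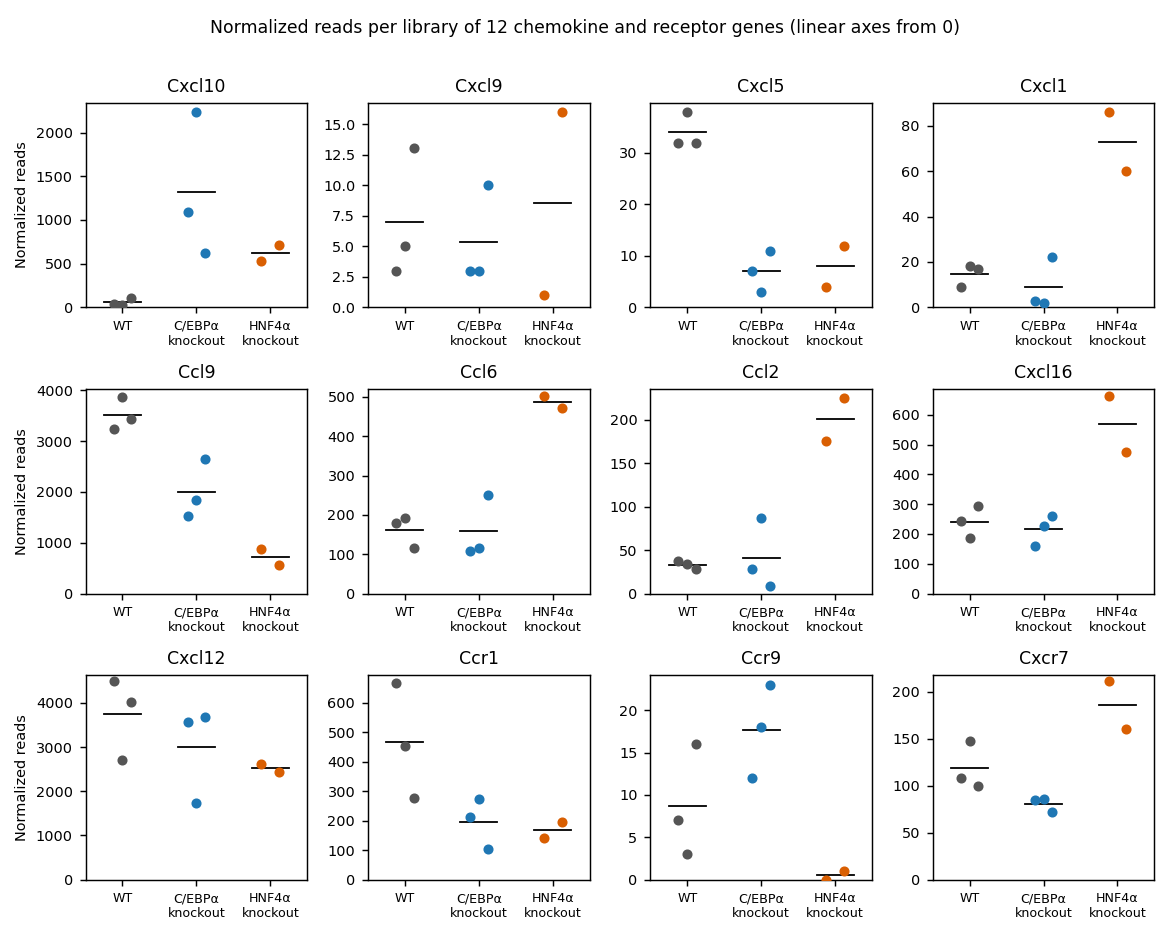
Normalized reads (vertical axes, linear, starting at 0 and scaled per gene) of 12 genes in each library of WT (grey), the C/EBPα knockout (blue) and the HNF4α knockout (orange); each point is a library and each bar a group mean. Cxcl10 is above WT in all 5 knockout libraries, Ccl9 and Cxcl5 are below WT in all 5, and Ccl6, Ccl2, Cxcl1 and Cxcl16 are above WT in the 2 HNF4α knockout libraries.

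None of the 12 tested receptors was called in any comparison. Ccr1, the receptor of Ccl3, Ccl6 and Ccl9 on myeloid cells, was at 667, 455 and 278 in WT, 214, 273 and 104 in the C/EBPα knockout and 142 and 197 in the HNF4α knockout. All 5 knockout libraries were below the lowest WT library, with log2 changes of -1.26 ± 0.46 (limma adjusted p = 0.207) and -1.39 ± 0.51 (limma adjusted p = 0.159). Cxcr4, which holds blood progenitors near Cxcl12, was at 375, 551 and 487 in WT, 405, 117 and 238 in the C/EBPα knockout and 438 and 799 in the HNF4α knockout. Its groups overlapped WT in both comparisons. Cx3cr1, found on monocytes and macrophages, was at 377, 623 and 356 in WT, 447, 455 and 574 in the C/EBPα knockout and 359 and 216 in the HNF4α knockout, again with overlap.

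Cxcr7, a scavenging receptor of Cxcl12, was at 108, 148 and 100 in WT, 85, 86 and 72 in the C/EBPα knockout and 211 and 160 in the HNF4α knockout. The knockouts lay on opposite sides of WT without overlap, but neither change was called (-0.53 ± 0.39, limma adjusted p = 0.625, and 0.65 ± 0.43, limma adjusted p = 0.418). Cxcr2, the neutrophil receptor of Cxcl1, Cxcl2 and Cxcl5, was at 605, 369 and 265 in WT, 285, 955 and 420 in the C/EBPα knockout and 476 and 382 in the HNF4α knockout. Its 3 groups overlapped.

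Ccr9, the receptor of Ccl25 on plasmacytoid dendritic cells and thymocytes, was at 7, 3 and 16 in WT, 12, 18 and 23 in the C/EBPα knockout and 0 and 1 in the HNF4α knockout. Its log2 change of -2.53 ± 0.95 in the HNF4α knockout was not called (limma adjusted p = 0.164) and depends on the added 1. Siglech, a marker of plasmacytoid dendritic cells, was at 37, 32 and 44 in WT, 43, 29 and 29 in the C/EBPα knockout and 1 and 2 in the HNF4α knockout, where it fell by 3.97 ± 0.67 on the log2 scale (limma adjusted p = 0.00619). The part of these cells in the Ccr9 values was not tested. In bulk tissue, fewer cells of a type and less RNA per cell cannot be told apart.

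Ccr3, the eotaxin receptor of eosinophils, was at 23, 24 and 245 in WT, 31, 9 and 3 in the C/EBPα knockout and 30 and 18 in the HNF4α knockout, so WT replicate 3 alone was high. The 7 markers of eosinophils, basophils and mast cells summed to 119, 122 and 1578 in WT, 1826, 829 and 2702 in the C/EBPα knockout and 114 and 92 in the HNF4α knockout. The marker sum was thus high in WT replicate 3 and in all 3 C/EBPα knockout libraries, and in the latter Ccr3 was low. The markers did not move together in the C/EBPα knockout. Siglec5 (Siglecf) rose (log2 change 2.84 ± 0.68, limma adjusted p = 0.0434). Mcpt8 (11, 8 and 6) and Prss34 (3, 1 and 8) were below WT (16, 18 and 40, and 22, 24 and 9). Prg2, Epx, Cpa3 and Ms4a2 overlapped WT. Among the other receptors, Ccr2, Ccr7, Cxcr5 and Xcr1 had limma adjusted p of 0.446 or more in each comparison.

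Markers of cells that make or carry chemokines differed between the groups in both directions. The 13 Kupffer cell and macrophage markers, all above 0 in every library, summed to between 21849 and 25051 in WT, 12972 and 27115 in the C/EBPα knockout and 39365 and 46607 in the HNF4α knockout. Of these 13, 1 rose in the HNF4α knockout (Cd68, log2 change 1.70 ± 0.42, limma adjusted p = 0.0458) and the median log2 change was 0.98. Cd163 of the same list was below WT without overlap (80 and 66, with WT at 163, 96 and 94). C1qa, Clec4f, Csf1r, Emr1, Lyz2 and Vsig4 overlapped WT. The 11 markers of neutrophils and their precursors were all above 0 in every library, and 0 of 11 were called. They summed to between 46961 and 69473 in WT and 34820 and 98934 in the C/EBPα knockout. In the HNF4α knockout they summed to 103359 and 113897. There Elane, Prtn3, Ctsg, Ngp and S100a8 lay above WT, and Mpo, Camp, Ltf, S100a9, Ly6g and Mmp8 overlapped it. Ngp alone was at 37418 and 32492, with WT at 13399, 12923 and 12088. The 11 stellate cell and fibroblast markers summed to between 13174 and 20545 in WT, 14000 and 23779 in the C/EBPα knockout and 39895 and 96924 in the HNF4α knockout, where Col1a1, Col1a2 and Acta2 rose. The 96924 belongs to HNF4α knockout replicate 1, the library with muscle RNA, and 31081 of it is Des, which muscle also expresses (612 in replicate 2). Of the 39895 in replicate 2, Col1a1, Col1a2 and Col3a1 were 11721, 7197 and 9822. Col3a1, Pdgfrb and Des lay above WT without being called, and Dcn, Hgf, Lrat, Pdgfra and Reln of the same list overlapped WT. Lymphocyte markers summed to between 1343 and 1642 in WT and to 830 and 1281 in the HNF4α knockout, and those of monocytes and dendritic cells to between 819 and 1191 and to 867 and 1224. The sums of hepatocyte markers, given above, were below WT in the HNF4α knockout, although Ahsg was above it. Those of eosinophil, basophil and mast cell markers (114 and 92) were near WT replicates 1 and 2 (119 and 122). They were far below WT replicate 3 only (1578). The part of these cells in the higher ligand values was not tested. T cell markers were low, with Cd3e, Cd3g and Cd8a at 0 in at least 1 library.

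Genes around the chemokine system were counted from lists of atypical receptors, chemokines outside the naming pattern, receptor signalling, inducers, and proteases. In the C/EBPα knockout, 1 of 74 tested entries of these lists was called: Rarres2, which encodes the attractant chemerin, was at 3773, 2326 and 618 in WT, 122, 122 and 110 in the C/EBPα knockout and 1216 and 697 in the HNF4α knockout. Rarres2 fell by 3.89 ± 0.56 on the log2 scale (limma adjusted p = 0.00241). In the HNF4α knockout 2 of 74 entries were called. Il1r1, the receptor of interleukin 1, had 330 and 547 normalized reads in the HNF4α knockout, against 1549, 1175 and 1796 in WT, and fell by 1.80 ± 0.42 (limma adjusted p = 0.0362). Mmp12, the macrophage elastase that can cleave chemokines, had 152 and 58 in the HNF4α knockout, against 0, 10 and 3 in WT, and rose by 4.75 ± 1.11 (limma adjusted p = 0.0353). Between the knockouts 3 of 74 entries were called, Rarres2 and Mmp12 again and C5ar1, a receptor of complement C5a, all lower in the C/EBPα knockout (limma adjusted p = 0.0294, 0.037 and 0.0337). None of the 5 tested atypical receptors and none of the 30 signalling genes was called against WT. The platelet chemokines Pf4 and Ppbp were not called either.

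Binding was read from the authors' peak lists on mm9, which give positions only. A stretch was taken as bound at a given stage if peaks of both replicates shared at least 1 bp, and a gene as having a region where such a stretch lay within 10 kb of its start site. For HNF4α at P0.5 the 2 lists hold the same peaks and count as 1 list. At least 1 C/EBPα region at any stage was near 39 of the 47 genes (83.0%, against 79.7% of the 17713 protein-coding genes). An HNF4α region at any stage was near 17 (36.2%, against 62.4%). The counts over E15.5, E18.5, P0.5, P14 and P60 were 9, 29, 37, 18 and 19 genes for C/EBPα. As shares these were 19.1%, 61.7%, 78.7%, 38.3% and 40.4%, against 19.2%, 64.3%, 77.1%, 48.0% and 49.3% of all genes. For HNF4α they were 16, 6, 11, 9 and 11 genes, or 34.0%, 12.8%, 23.4%, 19.1% and 23.4%, against 48.5%, 18.8%, 40.0%, 37.7% and 47.0% of all genes. The share for HNF4α was thus below that of all genes at all 5 stages. For C/EBPα the counts follow the number of bound regions per stage, which ran from 10419 (E15.5) to 94619 (P0.5); for HNF4α they do not, with 36322 regions at P60 and 35764 at E15.5. Within 1 kb of the start site, C/EBPα was near 2.13%, 23.4%, 34.0%, 8.51% and 12.8% of the 47 genes over the same stages, against 6.75%, 32.3%, 46.2%, 26.0% and 24.2% of all genes. HNF4α was near 12.8%, 4.26%, 6.38%, 8.51% and 10.6%, against 21.8%, 5.66%, 22.1%, 20.8% and 28.8%. In this narrower window the shares of both factors were below those of all genes at all 5 stages. Since 17 genes share part of their window with another, the genes are not independent, and no test was made.

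**Figure D3:**
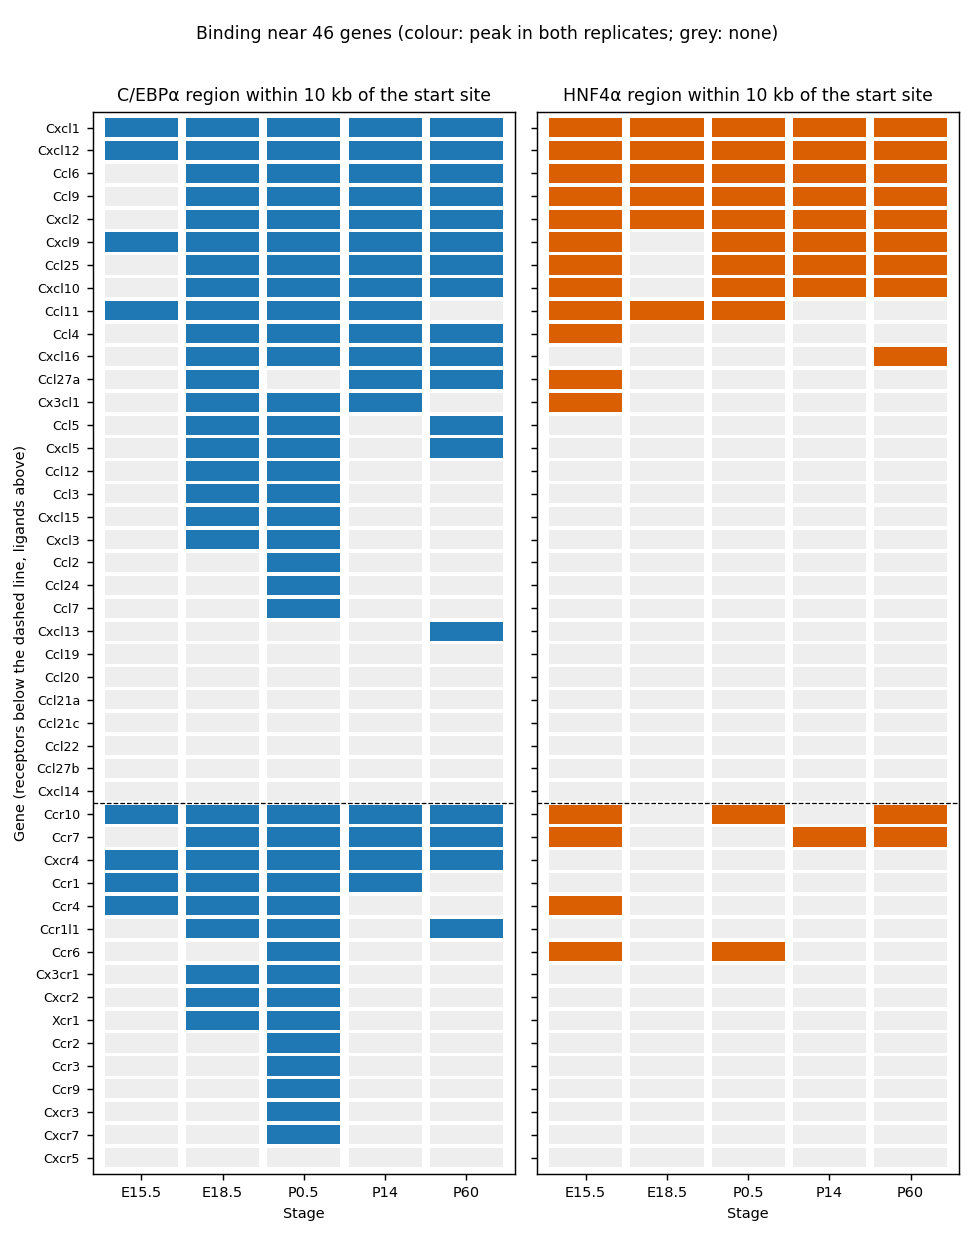
The genes, shown for 46 of 47 (rows, ligands above the dashed line and receptors below) with a region bound by C/EBPα (left, blue) or HNF4α (right, orange) within 10 kb of the start site at each of 5 stages; grey marks no such region. Counting all 47 genes, C/EBPα regions were near 37 at P0.5, and HNF4α regions were near 17 genes at any stage, of which 4 are receptors.

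Ligands and receptors were also counted separately. Of 30 ligands 23 and of 17 receptors 16 had a C/EBPα region at any stage, whereas HNF4α regions were near 13 ligands and 4 receptors (Ccr10, Ccr7, Ccr4 and Ccr6). Over all protein-coding genes the shares at any stage were 79.7% for C/EBPα and 62.4% for HNF4α. Merged over stages, 105 distinct sites lay in the windows, of which 72 were bound by C/EBPα only, 23 by both factors and 10 by HNF4α only. The 41 sites near receptors comprised 33 bound by C/EBPα only, 4 by both and 4 by HNF4α only. The 64 sites near ligands comprised 39, 19 and 6. At 34 of the 105 sites the only bound list was C/EBPα at P0.5, the stage with the most regions. No site was found near 8 genes: Ccl19, Ccl20, Ccl21a, Ccl21c, Ccl22, Ccl27b, Cxcl14 and Cxcr5. A region of either factor at 2 or more stages was near 30 genes. Neither this count nor the split of sites was made over all genes, so neither is read as particular to these genes. C/EBPα was near Ccl5, Ccl12, Ccl3, Ccl27a, Cxcl3, Cxcl15, Ccr1l1, Cx3cr1, Cxcr2 and Xcr1 at 2 or 3 stages.

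Cxcl10 (mm9 chr5:92775664-92777915, minus strand) had 5 sites. A site of 906 bp that spans its start site (chr5:92777662-92778567) was bound by C/EBPα at E18.5, P0.5, P14 and P60 and by HNF4α at E15.5 and P60. Sites centred 4268 and 9980 bp upstream were also bound by both factors. Cxcl9 (chr5:92750357-92757105, minus strand) likewise had a site at its start (chr5:92756093-92757363), bound by C/EBPα at E18.5, P14 and P60 and by HNF4α at P14 and P60. Within Cxcl9, a site centred 5227 bp downstream of the start was bound by C/EBPα at all 5 stages and by HNF4α at 4. The neighbours thus both had sites of both factors, and in the knockouts Cxcl10 was higher and Cxcl9 was not called.

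Ccl9 (chr11:83386421-83392138, minus strand) had a site of 1105 bp over its start (chr11:83391571-83392675) that was bound by HNF4α at all 5 stages and by C/EBPα at E18.5 and P0.5. The HNF4 match in the Ccl9 promoter shown above lies 43 bases before the RefSeq start site, but was read on another build and was not placed within this site. A second site, chr11:83396063-83397663, between Ccl9 and Ccl6, was bound by HNF4α at all 5 stages and by C/EBPα from E18.5 to P60. It lies in the windows of both genes, whose log2 changes in the HNF4α knockout had opposite signs (that of Ccl6 was not called). The site at the start of Ccl6 itself (chr11:83406517-83407383) was bound by C/EBPα at E18.5 and P0.5, and by HNF4α at no stage.

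Cxcl1 (chr5:91320267-91322141, plus strand) had 7 sites, 5 of them bound by both factors. The site over its start (chr5:91319231-91320769) was bound by both factors at all 5 stages. Another, chr5:91327479-91329822, lies in the windows of Cxcl1 and Cxcl2 and was bound by HNF4α at all 5 stages and by C/EBPα at 4. Cxcl12 had 4 sites, with HNF4α at its start (chr6:117116684-117119275) at E15.5, P0.5, P14 and P60, where C/EBPα was called at P0.5 only. A site within Cxcl12 (chr6:117119582-117121029) was bound by C/EBPα at all 5 stages and by HNF4α at E15.5, E18.5, P14 and P60. Ccl25, Ccl11 and Ccl4 each had 1 site of both factors.

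Among receptors, Cxcr4 had a site 5199 bp downstream of its start (chr1:130483188-130484155) bound by C/EBPα at all 5 stages and no HNF4α site. Ccr1 had 4 sites bound by C/EBPα only, of which 1 spans its start (chr9:123883264-123883734, E18.5 and P0.5). Cxcr2 had 6 such sites. Ccr10 had a site of both factors (chr11:101031699-101034094), with C/EBPα at all 5 stages, although the gene was at 0 or 1 in 7 of 8 RNA libraries.

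**Figure D4:**
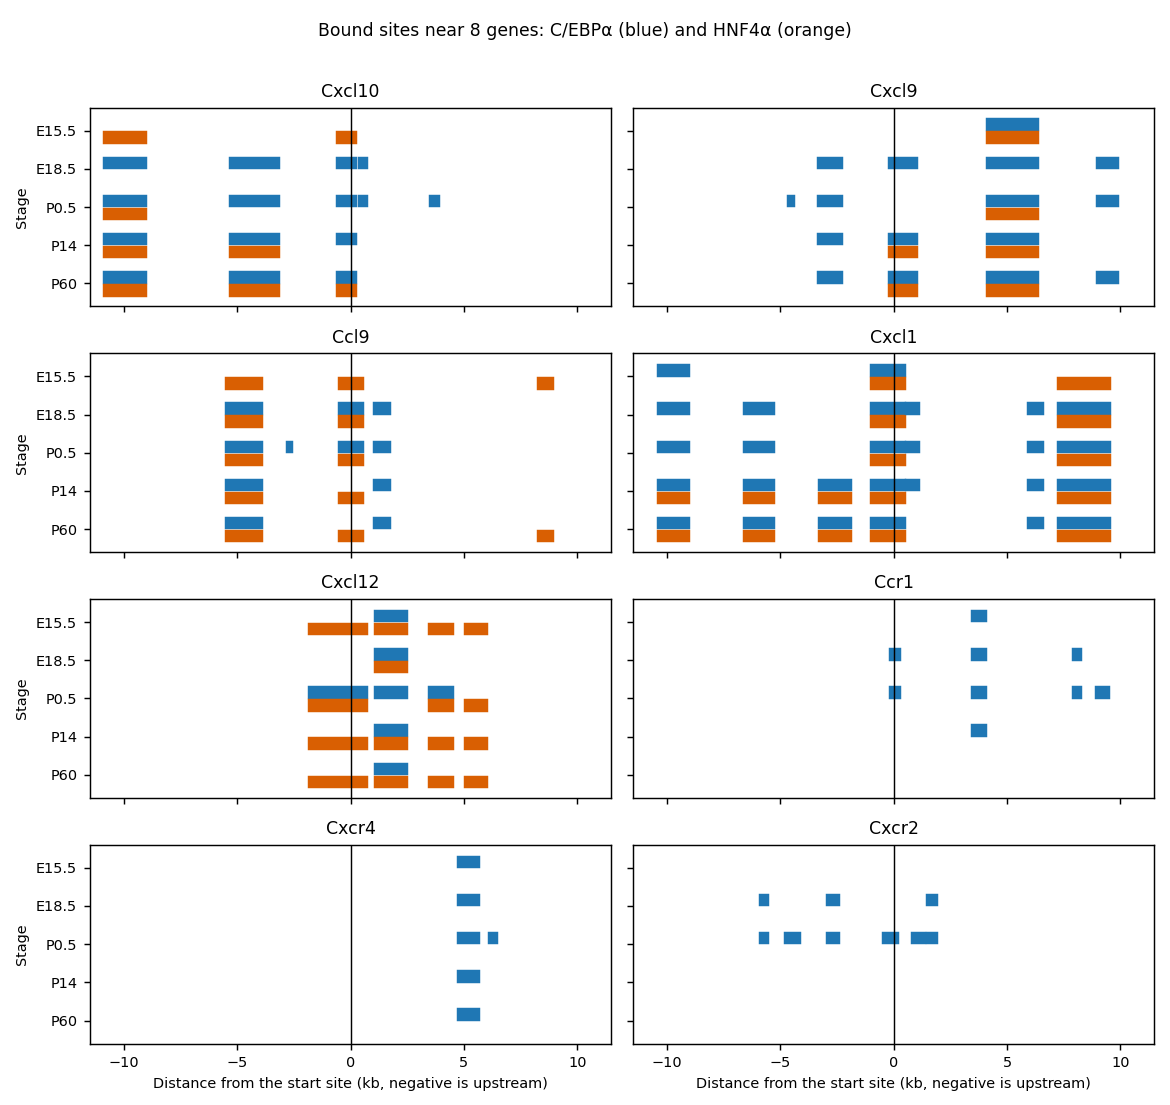
Sites bound by C/EBPα (blue) and HNF4α (orange) around 8 genes, by stage (vertical) and distance from the start site in kb (horizontal, negative is upstream); each bar spans the whole site merged over stages. Cxcl10, Cxcl9, Ccl9, Cxcl1 and Cxcl12 have sites of both factors, and Ccr1, Cxcr4 and Cxcr2 have C/EBPα sites only.

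Set beside the RNA values, an HNF4α region at any stage was near 6 (54.5%) of the 11 ligands that were at least 2-fold higher without overlap in the HNF4α knockout (Ccl4, Ccl6, Cx3cl1, Cxcl1, Cxcl10 and Cxcl16), near 1 of the 4 genes that were lower (Ccl9) and near 5 (27.8%) of the 18 other tested genes, against 62.4% of all genes. A C/EBPα region was near 1 of the 2 genes that were higher in the C/EBPα knockout (Cxcl10), near 3 of the 4 that were lower (Ccl24, Cxcl5 and Ccr1) and near 24 (88.9%) of the 27 others, against 79.7% of all genes. Counting only regions at 2 or more stages, HNF4α was near 3 of the 11 higher, 1 of the 4 lower and 4 of the 18 other genes. Ccl4 and Cx3cl1 had an HNF4α region at E15.5 only, and Cxcl16 at P60 only. Likewise C/EBPα was near 1 of the 2 higher, 2 of the 4 lower and 18 of the 27 other genes. These counts are given without a test. Among the higher genes, Ccl12, Ccl3, Ccl4 and Ccl21a passed the filter only with HNF4α knockout libraries, and Ccl20 only with C/EBPα knockout libraries.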

How the data were processed

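The RNA values are a score per gene: per the file headers and the submitters' processing notes, the authors deposited reads normalized with DESeq, here found to be rounded to whole numbers; the annotation version is not given in the sources used here. Per the submitters' processing notes, the tools named include TopHat2, BWA and MACS 1.4, and the build is mm9. The deposited peak lists give positions; their score column is 0 throughout. GC content is a fraction per gene in the deposited table and served a library check and a correction. Its rank correlation with gene-wise log2 deviation from the mean of all libraries was -0.110, -0.00913 and -0.485 in WT. It was -0.323, -0.0979 and 0.275 in the C/EBPα knockout and 0.358 and 0.331 in the HNF4α knockout. With GC correction, the HNF4α knockout log2 changes were -1.96 for Ccl9 (limma adjusted p = 0.0221) and 3.55 for Cxcl10 (limma adjusted p = 0.0104). The deposited file of each of the 8 libraries equals its column of the series table.

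Values were analysed as log2(value + 1) with limma 3.58.1 (R 4.3.3, variance trend, 2-sided), since a count model does not suit normalized values. Genes with at least 10 in at least 2 libraries were kept. The fit was also run on values simulated from the WT means and the fitted spread of these data. Libraries were grouped by the labels, which do not say whether replicates are separate litters, so p-values measure the spread between these samples. Replicate numbers did not pair the libraries. Of the libraries, totals of 13.4 to 26.0 M set the precision: genes under 10 could not be compared. The genes and lists were chosen with earlier results of these data known. Genes were named where called, where at least 2-fold from WT without overlap, where bound at 2 or more stages, or among the 3 highest ligands or receptors in WT; genes of the pathway lists were named where called, and marker genes only beside a result, after their values were seen. Ccr3, Ccl25, Cxcl9 and other single genes beyond this rule were named after their values were seen. Counts cover all genes, including some not reported here by name. Alternatives were the added value, the filter, the scaling, a replicate block, left-out libraries, GC correction, window and overlap.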

Additional observations from a re-analysis of the deposited data

Results flagged for a closer look

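Cxcr7 was the only tested chemokine or receptor gene for which the knockouts lay on opposite sides of WT with every library. All 3 C/EBPα knockout libraries (85, 86 and 72 normalized reads) were below the lowest of the WT libraries (100) and both HNF4α knockout libraries (211 and 160) were above the highest (148). The difference between the knockouts was -1.18 ± 0.43 on the log2 scale, with a 95% interval from -2.13 to -0.23, and was not called (limma adjusted p = 0.180, unadjusted p = 0.0198). Groups without overlap were common: of all genes, 10.3% lay below WT in the C/EBPα knockout and 22.1% above WT in the HNF4α knockout. Between the knockouts 34.4% of all genes did not overlap. The share of all genes with both was not counted.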

How the results depend on the processing

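Of 972 values of single genes under other settings, 925 kept their direction and their side of the threshold, 18 passed it newly, 3 no longer passed it and 26 changed sign, none of them a called change; causes were not tested. Without a variance trend or with 8 added to each value, 3 genes were called between the knockouts (479 and 668 of all genes), and 2 with equal library totals or quantile normalization (800 and 605), in place of 0 (619). Fitted on the 2 groups compared alone, 4 genes were called in the HNF4α knockout, with 1475 of all genes there and 343 between the knockouts. Without the filter, 410 of all genes were called between the knockouts. With the replicate block, whose numbers did not pair the libraries, 486 of all genes were called in the HNF4α knockout and 288 between the knockouts, and the calls of Cxcl10 and Ccl9 stayed. Same-numbered WT and C/EBPα knockout libraries had correlations of deviations of -0.063, 0.190 and -0.231.

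Leaving out 1 library at a time gave 311 to 804 genes called in the C/EBPα knockout, 238 to 1372 in the HNF4α knockout and 88 to 855 between the knockouts, and 0 to 4 and 0 to 2 of the chemokine genes in the last 2 (0 without HNF4α knockout replicate 2 in the HNF4α knockout, and 4 and 2 without C/EBPα knockout replicate 3); a lone HNF4α knockout library was assumed to vary like the other groups. The chemokine genes at least 2-fold from WT without overlap then numbered 1 to 3 higher and 4 to 7 lower in the C/EBPα knockout, and 8 to 11 higher and 4 to 7 lower in the HNF4α knockout, while the shares of all genes ran from 4.37% to 7.10%, 6.88% to 9.78%, 12.3% to 18.2% and 11.9% to 18.3%; equal library totals gave 4 higher and 2 lower in the former. Log2 changes that changed sign in the C/EBPα knockout ran from -0.59 to 0.70 for Ccl12, -1.001 to 0.57 for Ccl2, -0.28 to 1.38 for Ccl3, -0.50 to 0.10 for Ccl6, -0.19 to 0.41 for Ccl7, -0.17 to 0.95 for Cx3cl1 and -0.33 to 0.04 for Cxcl16. Without WT replicate 3 and C/EBPα knockout replicate 1 together, 216 of all genes were called in the C/EBPα knockout, 347 in the HNF4α knockout and 138 between the knockouts, with -0.95 for Ccl12 and 0.19 for Cxcl16 in the C/EBPα knockout. In the HNF4α knockout Ccl24 ran from -0.85 to 0.48. Between the knockouts Ccl27b ran from -1.09 to 0.052, Ccr1 from -0.16 to 0.53 and Cxcl5 from -0.84 to 0.54. Equal library totals gave 0.28 for Ccl2, 0.39 for Ccl6 and 0.35 for Cxcl16 in the C/EBPα knockout, and 0.021 for Ccl27b and 0.34 for Cxcl5 between the knockouts; GC correction, chosen like the 2-fold counts after seeing the data, gave -0.26 for Ccr1 there.

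Windows of 1 kb left 1, 11, 16, 4 and 6 genes with C/EBPα and 6, 2, 3, 4 and 5 with HNF4α over the 5 stages, with shares below those of all genes at each stage. Windows of 50 kb gave 26, 39 and 42 with C/EBPα at E15.5, P14 and P60 (55.3%, 83.0% and 89.4%, against 50.0%, 80.5% and 83.3% of all genes), and 32, 24, 24, 25 and 26 with HNF4α (51.1% to 68.1%, against 53.5% to 80.3%). Single lists gave 23 to 30 with C/EBPα at P60.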

Other observations

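Atypical receptors other than Cxcr7, and platelet chemokines, were outside the naming pattern. Ackr1 (Darc in the table), which binds many chemokines without signalling, was at 267, 437 and 98 in WT, 252, 499 and 397 in the C/EBPα knockout and 753 and 728 in the HNF4α knockout. The 6 atypical receptors summed to between 604 and 817 in WT, 632 and 982 in the C/EBPα knockout and 1566 and 1689 in the HNF4α knockout, and 0 of the 5 tested were called by limma. Pf4, a platelet chemokine, was at 1962, 3653 and 1257 in WT, 833, 1710 and 708 in the C/EBPα knockout and 2993 and 3660 in the HNF4α knockout. The 7 megakaryocyte and platelet markers, Pf4 and Ppbp among them, summed to between 5941 and 8438 in WT, 2725 and 4568 in the C/EBPα knockout and 7615 and 8270 in the HNF4α knockout. Bile duct markers summed to between 1559 and 3027 in WT, 9182 and 11375 in the C/EBPα knockout and 2593 and 2970 in the HNF4α knockout, and 4 of the 8 tested rose in the C/EBPα knockout (Sox9, Cldn7, Prom1 and Spp1).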
